A study of Arabidopsis thaliana with 8 samples.

Results

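The Arabidopsis genome encodes 4 canonical poly(A) polymerases, PAPS1 (AT1G17980), PAPS2 (AT2G25850), PAPS3 (AT3G06560) and PAPS4 (AT4G32850, nPAP in the RefSeq table), and their transcripts were followed here on arrays that compared a PAPS1 mutant with its wild type. The genes were chosen by locus, as 4 of the 25665 loci named on the array, and every probe carrying one of these locus names was read, 6 in all. PAPS1 and PAPS3 had 1 probe each, A_84_P21911 and A_84_P13606. PAPS2 had A_84_P559706 and the further probe A_84_P17228, both named for the transcript At2g25850.1. PAPS4 had A_84_P163013, named for At4g32850.6, and the further probe A_84_P550325, named for At4g32850.1. Where a gene had 2 probes, the one of higher mean intensity stood for it.

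The study set plants carrying paps1-1 against wild-type (WT) plants of the same ecotype, Ler, in inflorescences and in whole seedlings, with 4 biological replicates per genotype and tissue. Main inflorescences, with open flowers left out, came from soil-grown plants of 30 days in both genotypes. Seedlings with their roots came from MS plates at 11 days for paps1-1 and at 9 days for WT, ages picked by the submitters to match the first true leaves, so that mutant seedlings were 2 days older and age cannot be told apart from genotype there. Growth was at 21 °C in long days for every group, and material was harvested 5 to 7 hours into the light period. Each of 8 two-colour arrays held mutant and WT RNA of 1 tissue, with the mutant in Cy5 on replicates 1 and 2 and in Cy3 on replicates 3 and 4.

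A poly(A) polymerase adds the tail of adenosines to the cleaved 3′ end of a pre-mRNA, working with the cleavage and polyadenylation factors that recognise the end of the transcript. The tail is bound by poly(A)-binding proteins and supports export, stability and translation of the message. PAPS1, PAPS2 and PAPS4 are the nuclear enzymes. PAPS2 and PAPS4 are close relatives of each other, and PAPS1 is functionally distinct from them. PAPS3 encodes a shorter enzyme that has been described outside the nucleus and, by promoter activity, in pollen. The paps1-1 allele is a point mutation that weakens the enzyme, so the PAPS1 signal does not check the genotype labels.

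The comparison of mutant with WT asked whether the transcripts of the mutated gene and of its relatives differed. All 6 probes passed the filter on dim signals, and 5 were well above background on every array in both colours. PAPS3 passed it through the inflorescences alone, where it was well above background in both genotypes on all 4 arrays; in seedlings it was so on 0 of 4 arrays in either genotype. In inflorescences 0 of the 6 probes were called higher and 2 lower at an adjusted p under 0.05, where 26.1% of the 21866 probes tested were called higher and 27.6% lower (53.6% together). In seedlings 0 were called higher and 1 lower, against 28.5% and 29.4% of all probes (57.9% together). The 3 lower calls were those of PAPS3 and of the further PAPS2 probe in inflorescences and of the further PAPS2 probe in seedlings. The median size of the log2 ratio was 0.13 over the 6 probes and 0.17 over all probes in inflorescences, and 0.05 and 0.19 in seedlings. The seedling counts and median of the 6 probes include PAPS3. Its small ratio there comes from spots not well above background and does not measure the transcript.

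**Figure D1:**
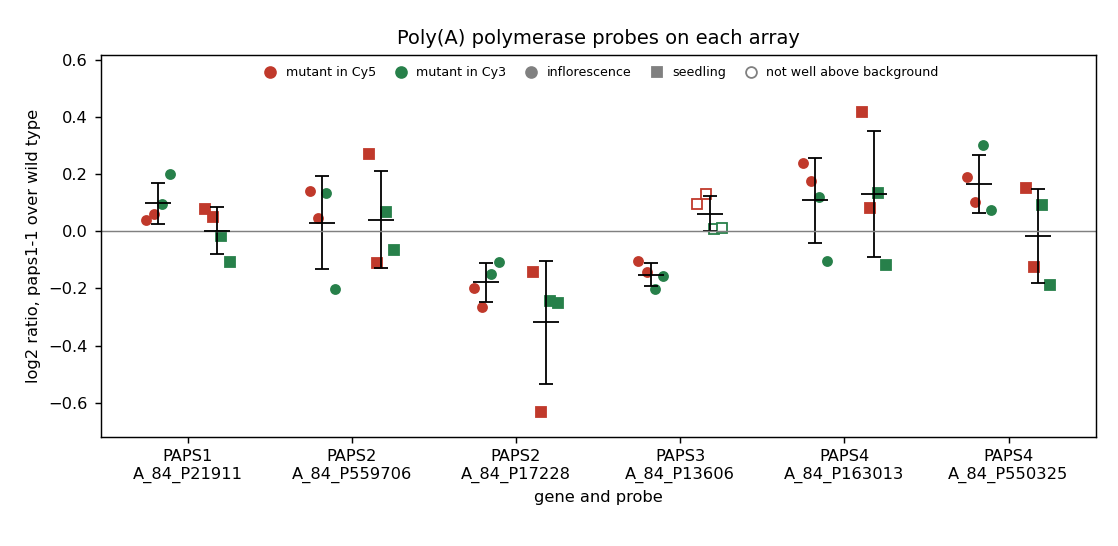
Log2 ratio of paps1-1 over wild type for each polymerase probe (x axis) on each array; circles are inflorescence and squares seedling arrays, the colour gives the dye of the mutant, open symbols are spots not well above background, and bars are mean ± SD (n = 4). The further PAPS2 probe, A_84_P17228, lies below 0 on all 8 arrays and PAPS3 on all 4 inflorescence arrays, while the main PAPS2 and PAPS4 probes have arrays on both sides of 0 in each tissue.

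On the inflorescence arrays as a whole, the median spot signal over local background was 3.89 to 5.02 in red and 4.93 to 5.51 in green. The seedling arrays were dimmer, at 2.66 to 3.04 and 3.35 to 4.06. Spots well above background made up 61.0% to 64.2% on inflorescence arrays and 57.3% to 59.7% on seedling arrays, and no spot was saturated. The 8 arrays limit the precision of every value. The log2 ratios of arrays of 1 tissue correlated across probes with r between 0.702 and 0.904, and those of arrays of different tissues between 0.369 and 0.536; probes are not independent replicates. All 6 floral organ identity genes checked were lower, and all 6 root genes higher, in seedlings than in inflorescences in both genotypes, where 81.2% of probes in WT and 82% in paps1-1 were called in either direction. In inflorescences 3 of the root genes, and in seedlings 1 of the floral genes, were well above background on no array of either genotype, so no size is given for these differences. EXPA7, MYB36, CASP1 and BRN1 passed the filter on dim signals through seedlings alone, and AP1 and LFY through inflorescences alone. Their direction was largely fixed by that filter, and they are not read against the shares of all probes. The p-values below come from limma fits across all probes, adjusted by the Benjamini-Hochberg method, and ± after a log2 difference is its standard error (SE).

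PAPS1 transcript differed little between the mutant and WT. On inflorescence replicates 1 to 4 its log2 ratio of paps1-1 over WT was 0.04, 0.06, 0.10 and 0.20. All 4 arrays were above 0, and the normalized levels of the groups touched: 11.04, 11.08, 11.06 and 11.00 in WT and 11.08, 11.14, 11.16 and 11.21 in paps1-1 (log2 intensity). The mean difference of 0.10 ± 0.05 was not called (adjusted p = 0.118), with a 95% interval from 0.992-fold to 1.16-fold. It was 0.06 without inflorescence replicate 4 and 0.04 with median centring. In seedlings the ratios were 0.08, 0.05, −0.02 and −0.11. They lay on both sides of 0, above it on both arrays with the mutant in Cy5 and below it on both with the mutant in Cy3. Their mean was 0.0023 ± 0.05 (adjusted p = 0.973), with an interval from 0.928-fold to 1.08-fold. Only 0.745% of all probes had a ratio closer to 0 in seedlings. None of 19 alternative settings in either tissue called the gene.

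Levels were also compared between tissues. In WT 2 of the 6 probes were called higher in seedlings and 1 lower, where 38% and 43.2% of the 21751 probes of that fit were (81.2% together). In paps1-1 1 was called higher and 1 lower, where 38.2% and 43.8% were (82% together). The lower one was PAPS3 in both; it was kept through the inflorescences alone, so its direction was fixed by the filter and it is not read against these shares.

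PAPS1 stood higher in seedlings than in inflorescences in WT. Its WT seedling levels were 11.30, 11.25, 11.22 and 11.24, all above the 4 WT inflorescence levels. This difference of 0.21 ± 0.05 (1.15-fold) was called (adjusted p = 0.00212). The levels of paps1-1 seedlings, 11.38, 11.30, 11.21 and 11.14, overlapped those of paps1-1 inflorescences, and the difference of 0.11 ± 0.05 was not called (adjusted p = 0.0709). Without inflorescence replicate 4 or seedling replicate 4 it was, at adjusted p = 0.0456 and 0.0197. The test of the difference between the genotype effects of the 2 tissues gave −0.10 ± 0.07 (adjusted p = 0.320), so the tissue difference was not shown to depend on genotype. In order of mean level the groups ran from paps1-1 seedlings (11.26 ± 0.10, SD, n = 4) and WT seedlings (11.25 ± 0.03) to paps1-1 inflorescences (11.15 ± 0.05) and WT inflorescences (11.05 ± 0.03). Neighbours within a tissue overlapped. Tissue went with slide, plant age and growth on soil or plates, and these cannot be told apart.

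Levels between tissues depend on the scaling between arrays. With no normalization between arrays, the median of all probes was lower in seedlings by a log2 difference of −0.70 in either genotype, and PAPS1, PAPS2 and PAPS4 turned to below 0 with it. Relative to that median PAPS1 was at 0.17 in WT and 0.07 in paps1-1, PAPS2 at 0.27 in each, and PAPS4 at 0.04 and 0.06. PAPS3 was at −0.80 in WT and −0.59 in paps1-1 relative to it, nearer to 0 than with the main scaling (−1.18 and −0.96).

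**Figure D2:**
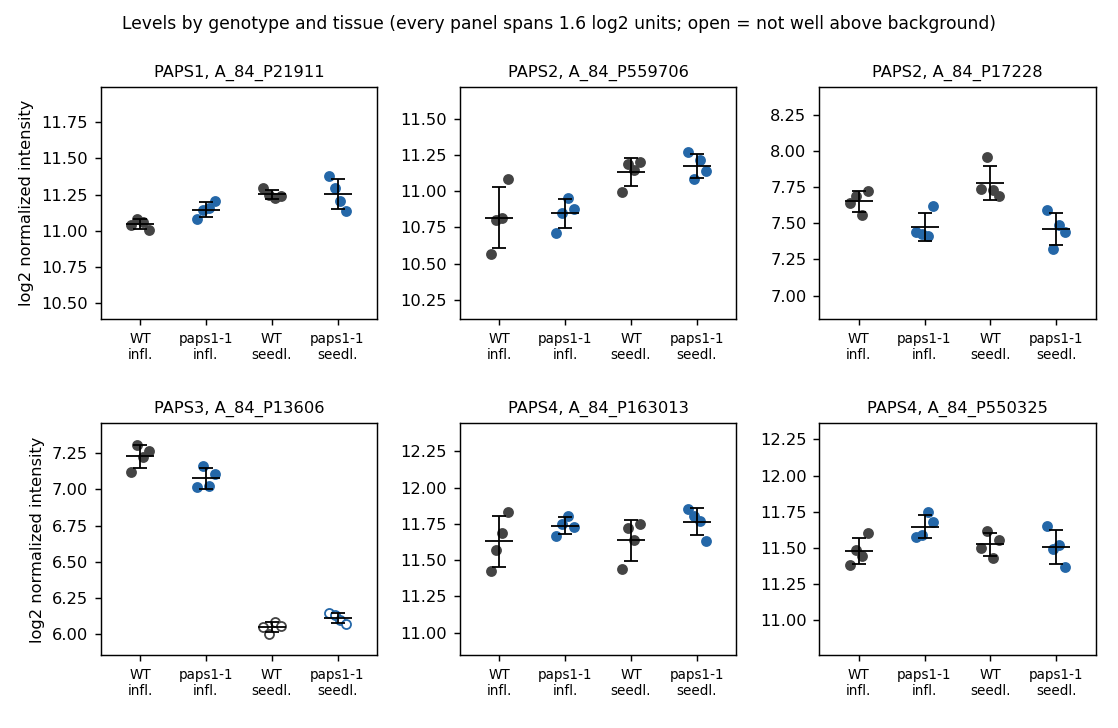
Normalized log2 intensity of each polymerase probe in the 4 groups of genotype and tissue; points are single channels (grey wild type, blue paps1-1), open points are not well above background, and bars are mean ± SD (n = 4). By mean level PAPS1 and the main PAPS2 probe stand higher in seedlings. The tissues overlap for PAPS1 in paps1-1, where the difference was not called, and for the main PAPS2 probe in wild type. PAPS3 is well above background in inflorescences only, and the PAPS4 groups overlap.

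The main probe of PAPS2, a nuclear relative of PAPS1, showed no called difference between genotypes. On inflorescence replicates 1 to 4 it read log2 ratios of 0.14, 0.05, 0.14 and −0.20. On the seedling replicates it read 0.27, −0.11, 0.07 and −0.06. Both sets straddled 0. The mean was 0.03 ± 0.07 in inflorescences (adjusted p = 0.746; interval 0.913-fold to 1.14-fold) and 0.04 ± 0.07 in seedlings (adjusted p = 0.651; 0.921-fold to 1.15-fold).

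The further PAPS2 probe, A_84_P17228, gave lower values in the mutant. On inflorescence replicates 1 to 4 the log2 ratio of A_84_P17228 was −0.20, −0.26, −0.15 and −0.11. In seedlings it was −0.14, −0.63, −0.25 and −0.25. Every array was below 0, and seedling replicate 2 lay lowest. The WT and paps1-1 levels did not overlap in seedlings (7.69 to 7.95 and 7.32 to 7.59) and overlapped in inflorescences (7.56 to 7.73 and 7.41 to 7.62). In seedlings this probe fell by 0.32 ± 0.07 (0.802-fold, adjusted p = 0.00264), and the call was made in all 18 alternative settings. The estimate was larger with the scanner software's log ratio, at −0.60, with normexp offset 0, at −0.50, and with the deposited value table, at −0.49. It ran from −0.41 to −0.22 when each array was left out in turn. In inflorescences it fell by 0.18 ± 0.07 (adjusted p = 0.0492), a call made in 6 of 18 alternatives, with adjusted p from 0.00869 to 0.144.

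The 2 PAPS2 probes therefore did not give the same ratio. The log2 ratio of A_84_P17228 minus that of A_84_P559706 was −0.28 ± 0.18 (SD, n = 8 arrays), below 0 on 7 of 8. An exact two-sided sign-flip permutation test over the arrays, chosen after the values were seen, gave p = 0.0156 (adjusted p = 0.0313 over the 2 genes with 2 probes; the smallest possible was 0.0078). A_84_P17228 was the dimmer probe, with a mean log2 intensity of 7.59 beside 11.00, though well above background on every array. Both probes bear the same transcript name, and which part of the transcript either one reads is not given in the files. No direction is given for PAPS2 as a gene between genotypes.

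Between tissues the main PAPS2 probe was higher in seedlings in both genotypes. WT inflorescences had levels of 10.57, 10.80, 10.81 and 11.08, and WT seedlings 11.00, 11.19, 11.15 and 11.20. The paps1-1 inflorescences had 10.71, 10.85, 10.95 and 10.88, and the paps1-1 seedlings 11.27, 11.08, 11.22 and 11.14. The mutant groups were apart, and the WT groups overlapped through inflorescence replicate 4. The differences were 0.32 ± 0.09 (1.25-fold, adjusted p = 0.00314) in WT and 0.33 ± 0.09 (1.26-fold, adjusted p = 0.00242) in paps1-1. The genotype effects of the tissues differed by 0.01 ± 0.10 (adjusted p = 0.946). The further probe was not called between tissues, with 0.12 ± 0.07 in WT (adjusted p = 0.126) and −0.01 ± 0.07 in paps1-1 (adjusted p = 0.857).

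The main probe of PAPS4, the other nuclear relative, had positive mean ratios that were not called. It gave log2 ratios of 0.24, 0.18, 0.12 and −0.10 in inflorescences. In seedlings it gave 0.42, 0.08, 0.13 and −0.12. Replicate 4 was the only array below 0 in each tissue. The means were 0.11 ± 0.07 (adjusted p = 0.196; interval 0.972-fold to 1.20-fold) and 0.13 ± 0.07 (adjusted p = 0.122; 0.987-fold to 1.21-fold). Single arrays moved both values: the first was 0.06 without inflorescence replicate 3, and the second 0.06 without seedling replicate 1 and 0.08 without seedling replicate 3. With median centring they were 0.07 and 0.05, and the scanner software's log ratio gave 0.06 in seedlings.

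The further PAPS4 probe was above 0 on all 4 inflorescence arrays. Its ratios there were 0.19, 0.10, 0.30 and 0.07, and the mean of 0.17 ± 0.07 just missed the threshold (adjusted p = 0.0549). It passed with the replicate block (adjusted p = 0.0236) and in 5 of 18 alternatives in all. In seedlings the ratios were 0.15, −0.12, 0.09 and −0.19, with a mean of −0.02 ± 0.07 (adjusted p = 0.849). The further probe minus the main probe was −0.04 ± 0.16 (SD, n = 8 arrays, exact two-sided sign-flip permutation p = 0.469). This pooled value joins unlike tissues. In inflorescences the mean was 0.06 ± 0.14 (SD), below 0 on 2 of 4 arrays. In seedlings it was −0.15 ± 0.11, below 0 on all 4, so the pooled test does not show that the probes agree.

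PAPS4 levels were close in the 4 groups. The means of the main probe ran from 11.77 ± 0.09 (SD, n = 4) in paps1-1 seedlings and 11.74 ± 0.06 in paps1-1 inflorescences to 11.64 ± 0.14 in WT seedlings and 11.63 ± 0.17 in WT inflorescences, and each neighbouring pair overlapped. Between tissues it differed by 0.0071 ± 0.08 in WT (adjusted p = 0.935; interval 0.898-fold to 1.13-fold) and 0.03 ± 0.08 in paps1-1 (adjusted p = 0.743; 0.911-fold to 1.14-fold). For the further probe the tissue differences were 0.05 ± 0.07 (adjusted p = 0.565) and −0.14 ± 0.07 (adjusted p = 0.0830).

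PAPS3 was well above background in inflorescences and not in seedlings, whose arrays were also dimmer as a whole. Before normalization its spots read 170.5 to 285 in red and 90 to 122 in green on the inflorescence arrays, over local backgrounds of 49 to 59 and 19 to 22. On the seedling arrays they read 65.5 to 72.5 in red and 33 to 36 in green, over backgrounds of 50 to 55.5 and 18 to 21.5. Normalized, WT inflorescences stood at 7.12, 7.30, 7.22 and 7.27 and paps1-1 inflorescences at 7.01, 7.16, 7.02 and 7.11. All 8 seedling values lay at or below 6.15. Against a floor set on each array at the lowest signal of any probe well above background, or at the probe's own value where that was higher, PAPS3 was at least 2.07-fold higher in inflorescences in WT and at least 1.84-fold higher in paps1-1. These bounds hold for the main scaling between arrays only, since the differences relative to the median of all probes without that scaling, −0.80 and −0.59 on the log2 scale, are smaller. With the main scaling the fits gave adjusted p = 2.98e-13 in WT and 5.16e-12 in paps1-1 for the tissue differences of PAPS3. Since the probe passed the filter through the inflorescences, it had to stand higher there, and these p-values are not read as support.

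In inflorescences PAPS3 was lower in the mutant by a small amount. Its log2 ratio was −0.10, −0.14, −0.20 and −0.16 on replicates 1 to 4, below 0 with either dye. The levels of the groups still overlapped. PAPS3 fell by 0.15 ± 0.04 (0.900-fold, interval 0.846-fold to 0.959-fold; adjusted p = 0.0100). The call ended with normexp offset 0 (−0.21, adjusted p = 0.0880), with median centring (−0.16, adjusted p = 0.246) and without inflorescence replicate 2 (−0.14, adjusted p = 0.0555), and the scanner software's log ratio gave −0.29. In seedlings neither genotype was well above background, and no fold is given.

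Markers of anther tissues also differed between the inflorescences. Of 6 genes of mature pollen, 2 were higher, 3 lower and 1 not called in paps1-1, where 26.2% of all loci were called higher and 27.5% lower, and their median log2 ratio was −0.20. VGD1 and PPME1 fell by 0.57 and 0.66, while BCP1 and CPK34 rose by 0.33 each. The summed level, to which bright probes contribute most and which does not describe each gene, was 44830 to 51730 in WT and 30330 to 36510 in the mutant. Of 6 tapetum genes, which serve the layer that feeds developing pollen, 5 were higher and 1 lower against the same shares of all loci, with a median of 0.30, and their sums were 16410 to 20680 and 23560 to 27450. All 12 were well above background in both inflorescence groups. In seedlings 0 of 6 tapetum genes and 1 of 6 pollen genes were well above background on all 4 arrays in either genotype. The part of these tissues in the PAPS3 ratio was not tested. In whole organs, fewer cells of a type and less RNA per cell cannot be told apart.

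**Figure D3:**
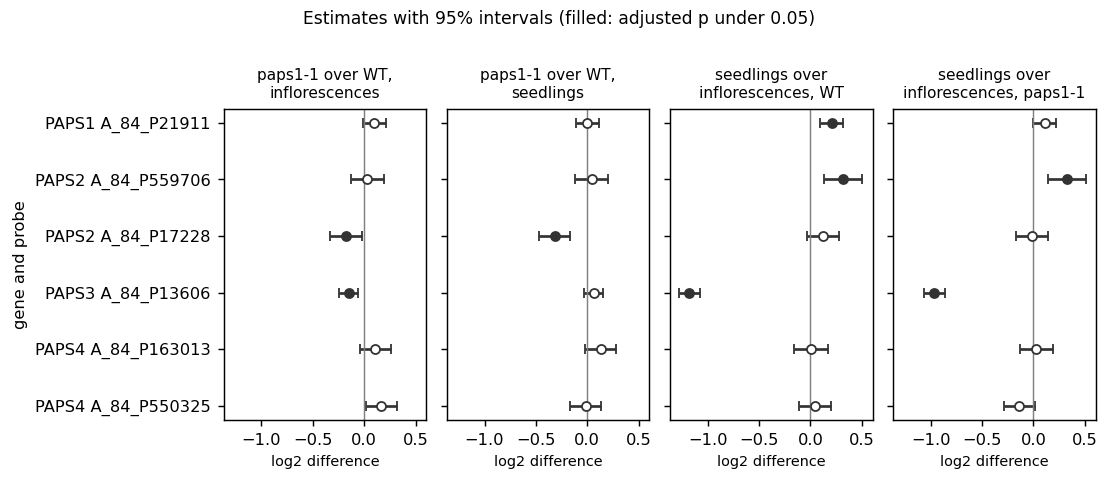
Estimated log2 differences (x axis) with 95% intervals for each polymerase probe in the genotype comparison of each tissue and the tissue comparison of each genotype; filled points have an adjusted p under 0.05. Apart from PAPS3 between tissues, whose seedling values are not above background, every estimate lies between −0.32 and 0.33.

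The test of the difference between tissues in the genotype effect called 1 of the 6 probes, where 32.1% of all probes were called. That probe was PAPS3, at 0.21 ± 0.06 (adjusted p = 0.0183), and since its seedling spots were not above background the value compares inflorescences with background. The differences of the other 5 probes ranged from −0.18 to 0.02 and were not called. The largest of these in size belonged to the further PAPS4 probe, at −0.18 ± 0.09 (adjusted p = 0.161).

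**Figure D4:**
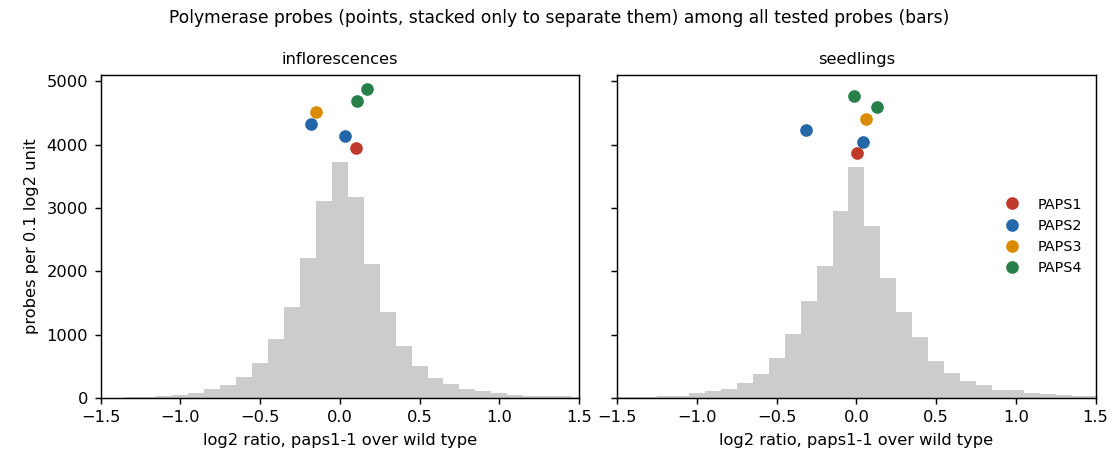
Log2 ratios of paps1-1 over wild type for all 21866 tested probes (grey bars, probes per 0.1 log2 unit, shown from −1.5 to 1.5) with the 6 polymerase probes as points at their own ratio, stacked in height only to separate them. In both tissues the points lie over the central bars, and the lowest is the further PAPS2 probe at −0.32 in seedlings.

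The partners of the polymerases in 3′ end formation were read from a list of 24 genes for cleavage and polyadenylation factors and nuclear poly(A)-binding proteins, of which 23 had a kept probe. In inflorescences 3 were called higher, 6 lower and 14 not called, where 26.2% of loci were called higher and 27.5% lower. The list's median log2 ratio was 0.0023, beside 0.00092 over all loci. In seedlings 3 were higher, 12 lower and 8 not called, where 28.6% and 29.3% of loci were. The medians there were −0.14 and −0.0038. The calls numbered 15 in seedlings, and 10 to 14 with each array left out in turn. In inflorescences they numbered 9, and 7 to 10. AT5G43620, among the genes not called in seedlings, was well above background on 0 of 4 seedling arrays in either genotype. With median centring in place of loess the list's median was −0.08 in inflorescences and −0.27 in seedlings. The median of all tested probes was then −0.03 and −0.06.

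AT4G25550 had the highest ratio on that list in both tissues. It rose by 0.74 ± 0.08 in inflorescences (adjusted p = 2.81e-05) and by 0.59 ± 0.08 in seedlings (adjusted p = 9.77e-05). CLPS3 (AT3G04680), a relative of the human cleavage factor Clp1, rose by 0.31 ± 0.05 in inflorescences and was at 0.05 ± 0.05 in seedlings (adjusted p = 0.431), and the difference between tissues was called (−0.26 ± 0.07, adjusted p = 0.0197). CPSF73-II (AT2G01730), a relative of the cleaving subunit of the CPSF complex, was at 0.14 ± 0.05 and 0.18 ± 0.05, calls made in 10 and 16 of 19 alternatives. CPSF30 (AT1G30460), a zinc finger subunit of that complex, was at 0.20 ± 0.08 in seedlings, a call made in 9 of 19, and at −0.08 ± 0.08 in inflorescences (adjusted p = 0.397).

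Among the lowest, AT5G10350 fell by 0.97 ± 0.05 in inflorescences and by 0.68 ± 0.05 in seedlings. PCFS4 (AT4G04885), a relative of the yeast factor Pcf11, fell by 0.48 ± 0.06 and 0.69 ± 0.06. CPSF73-I (AT1G61010), the cleaving subunit of CPSF, fell by 0.44 ± 0.04 in inflorescences and by 0.39 ± 0.04 in seedlings. AT3G66652 and FIP1[V] (AT5G58040) are both relatives of the yeast protein Fip1, which binds the polymerase. AT3G66652 fell by 0.29 ± 0.06 in inflorescences (adjusted p = 0.00156) and by 0.50 ± 0.06 in seedlings (adjusted p = 4.10e-05). FIP1[V] was at 0.05 ± 0.07 (adjusted p = 0.507) and −0.01 ± 0.07 (adjusted p = 0.899). All 19 alternatives kept the calls of AT4G25550, AT5G10350, PCFS4 and AT3G66652 in both tissues and those of CLPS3 and CPSF73-I in inflorescences.

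**Figure D5:**
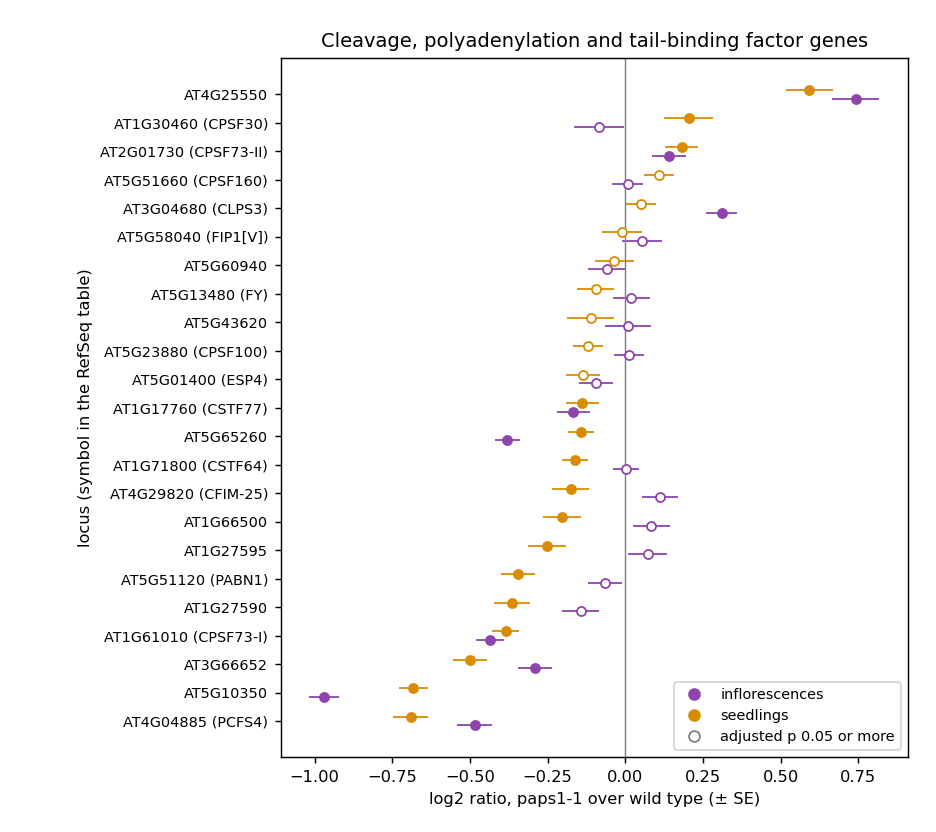
Log2 ratio of paps1-1 over wild type (± SE) for the 23 tested genes of the 3′ end list, ordered by the seedling value; purple is inflorescences, orange is seedlings, and open points have an adjusted p of 0.05 or more. AT5G10350 and PCFS4 lie lowest and AT4G25550 highest in both tissues.

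The loci whose pattern was most like that of each polymerase were named by Pearson's r over the 16 channels of the 8 arrays, among 21331 loci measured on all of them. The channels share arrays and fall into 2 tissues, so r mainly follows the tissue difference where a gene has one. For PAPS1 the closest were ATCSLA09 (r = 0.951), a cellulose synthase-like gene, DPE2 (0.927), a glucanotransferase of starch breakdown, and CP33 (0.924), a chloroplast RNA-binding protein. For PAPS2 they were BGAL10 (0.965), a beta-galactosidase, CNGC1 (0.922), a cyclic nucleotide-gated channel, and AT1G13000 (0.921). For PAPS4 the values were lower, with RFR1 (0.841), a subunit of Mediator also called MED33A, AT1G67300 (0.782) and AT4G39450 (0.771).

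PAPS3 was closest to PAB5 (r = 0.996), a cytoplasmic poly(A)-binding protein, RALFL17 (0.996), a RALF-like peptide, and EDA5 (0.996). These 3 genes also stood lower in seedlings, by log2 differences in WT of −6.18, −4.55 and −3.19. In inflorescences their log2 ratios of mutant over WT were −0.89, −0.46 and −0.36. The levels behind these differences and ratios also entered r, so they are a description of the chosen loci and no separate support for a likeness. Among the polymerases themselves r was 0.660 between PAPS1 and PAPS2, 0.538 between PAPS2 and PAPS4 and 0.232 between PAPS1 and PAPS4. Among the 21331 loci, PAPS2 ranked 5260 for PAPS1, and PAPS1 ranked 5612 for PAPS2. PAPS4 ranked 6963 for PAPS2, and PAPS2 ranked 323 for PAPS4. PAPS4 ranked 8735 for PAPS1, and PAPS1 ranked 3576 for PAPS4. PAPS3, whose seedling channels were not well above background, gave −0.781 with PAPS1, −0.784 with PAPS2 and −0.06 with PAPS4.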

How the data were processed

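Labelled RNA of paps1-1 and WT was hybridized to 8 two-colour Agilent arrays of 39102 spots. Per the file headers, Feature Extraction 10.7.3.1 gave the spot and background intensity in each colour. The deposited log10 ratio is red over green of the processed signals, as checked on the values (100% of spots well above background in both colours lay within 0.001). The deposited log2 table, which the authors had turned to mutant over WT, was used as an alternative; its correlation with red over green was 0.802 to 0.906 with the mutant in Cy5 and −0.889 to −0.908 in Cy3, with array medians from −0.02 to 0.02. Per the submitters' processing notes, limma was used. The normalization of that table and the labelling primer are not given in the labels or headers.

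Median signals were used, since the files hold no mean signal, corrected with normexp (offset 50) and normalized by loess within arrays (limma 3.58.1, R 4.3.3, package data.table at version 1.17.8). Ratios are therefore relative to the other probes, and the offset draws ratios of dim probes toward 0. Control and outlier spots were left out. Kept probes had to exceed background clearly on all 4 arrays of 1 genotype in 1 tissue and be measured on 6 arrays, which left 21866 that name a locus. One fit had a coefficient per tissue and a dye term (5 residual degrees of freedom). Levels, after Aquantile scaling, had a separate-channel fit with 4 groups (intraspot correlation 0.318). Both were tested on simulated data.

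Same-numbered arrays of the 2 tissues share dye orientation; their deviations from tissue means correlated at 0.12, 0.29, 0.32 and 0.15, and after removing dye means at 0.00003, 0.00003, 0.03 and 0.03, so the numbers were taken as marking dye. A replicate block was an alternative. The members and lists were chosen with earlier results of these data known. Named were all member probes, the 3 highest and 3 lowest called genes of the 3′ end list per tissue with AT3G66652 and FIP1[V], and the 3 loci most like each member. Symbols came from a RefSeq gene table. Probe and gene sequences were not used here, and no positions are given since the files name no genome build.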

Additional observations from a re-analysis of the deposited data

Results flagged for a closer look

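The level of the further PAPS2 probe, A_84_P17228, in paps1-1 inflorescences was 7.62 on replicate 4 against 7.41 to 7.44 on the other 3 arrays. The gap to the nearest array was 0.847 of the group's range, above Dixon's 95% critical value for 4 samples. Among the 36 groups of 4 values checked, chance alone marks about 1 in 20. The WT level of the same array, 7.73, was also the highest of its group, and the log2 ratio there was −0.11.

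The genotype effect on PAPS3 differed between tissues by 0.21 (seedlings minus inflorescences) in the test of the difference itself. PAPS3 was not well above background in seedlings in either genotype.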

How the results depend on the processing

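Over 525 combinations of a polymerase result and an alternative setting, 451 kept direction and side of the threshold, 20 lost a call, 17 gained one and 37 changed sign, 29 of these with neither value called. The causes were not tested. With normexp offset 0, PAPS3 was at −0.21 in inflorescences (adjusted p = 0.0880) and 0.32 in seedlings (0.0183), and with the deposited table at 0.25 in seedlings (0.00836), where its spots were not above background.

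With median centring PAPS3 was at −0.16 in inflorescences, PAPS2 at −0.044 and FIP1[V] (AT5G58040) at −0.029; in seedlings PAPS1 was at −0.11 and PAPS2 at −0.076; the differences between tissues were −0.031 for PAPS2, 0.31 for PAPS3 (0.190) and −0.015 for PAPS4. That setting called 3013 probes in the difference against 7011. Of the calls 32.3% against 49.2% in seedlings, and 36.3% against 50.6% in the difference, were then higher. The median of all tested probes in that setting was −0.031 in inflorescences and −0.061 in seedlings. With the scanner software's log ratio PAPS2 was at −0.0065 in inflorescences, PAPS1 at −0.0015 in seedlings and the PAPS4 difference at −0.034.

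Without normalization between arrays the tissue differences were −0.53 for PAPS1, −0.44 and −0.51 for the PAPS2 probes and −0.66 and −0.64 for the PAPS4 probes in WT, and −0.62 for PAPS1, −0.42 for PAPS2 and −0.64 for PAPS4 in paps1-1; 19.2% and 18.9% of calls were then higher, against 46.8% and 46.6%. With processed signals over the 75th percentile PAPS4 in WT was at 0.17 (0.0438), PAPS1 in paps1-1 at 0.12 (0.0403) and the further PAPS4 probe in paps1-1 at 0.0093.

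Leaving out each array in turn gave, in inflorescences, −0.032 to 0.10 for PAPS2 and −0.17 to −0.14 for PAPS3. In seedlings it gave −0.026 to 0.043 for PAPS1, −0.029 to 0.12 for PAPS2, −0.082 to 0.049 for the further PAPS4 probe and −0.11 to 0.046 for FIP1[V] (AT5G58040). For the difference it gave −0.062 to 0.092 for PAPS2, 0.20 to 0.23 for PAPS3 (called in 4 of 8) and −0.050 to 0.084 for PAPS4. Between tissues it gave −0.045 to 0.061 for PAPS4 in WT, and in paps1-1 0.068 to 0.15 for PAPS1, −0.077 to 0.030 for the further PAPS2 probe and −0.013 to 0.073 for PAPS4.

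The replicate block brought the further PAPS4 probe in inflorescences past the threshold (0.17, adjusted p = 0.0236), took CPSF73-II (AT2G01730) there out of the calls (0.14, adjusted p = 0.0584), and changed no other call among the polymerases or the named 3′ end genes. With 4 arrays per tissue and 95% intervals about 0.1 to 0.2 wide on either side, smaller differences could not be told from 0, and PAPS3 in seedlings was not well above background.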
